A study of Arabidopsis thaliana with 18 samples.

Results

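The transcriptome of the Swedish (SW) ecotype of Arabidopsis thaliana after 1 week at 4 °C was set against that of SW plants kept warm. An ecotype is a line collected from a natural population. Both SW groups carry their natural genotype, with no mutation or transgene named in the labels. The entire aerial part of soil-grown plants was taken. For 18 days plants were kept at 22 °C with 12 h of light a day at 100 to 120 µmol, and the cold plants then spent 1 week at 4 °C in light of about 35 µmol. All groups were sampled at ZT4, which is 4 h after the lights came on. The study holds 6 groups of 3 mRNA sequencing libraries, 18 in all: SW and Italian (IT) plants, each warm, after 1 week of cold and after 2 weeks of cold. SW plants after 1 week of cold and SW warm plants make up 6 of these libraries. The labels do not say which line each ecotype was, or how many plants entered a library. Cold, dimmer light and a greater age since germination came together in every cold group and cannot be told apart.

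Each gene had 1 deposited value per group, combined over its 3 libraries, in FPKM, sequenced fragments scaled to transcript length and to sequencing depth. No spread between libraries could be computed, so no difference below has a test, and each value is given as measured. The genes described were those with at least 1 FPKM in SW cold or SW warm plants, 18713 of the 33557 genes in the table. The ratio used throughout is log2((FPKM in cold + 1)/(FPKM in warm + 1)), which understates the difference of low genes. A gene is called higher or lower where this log2 ratio is at least 1 in size, a 2-fold difference. Numbers in parentheses after a pair of FPKM values are log2 ratios unless named otherwise. FPKM corrects for transcript length, so levels of different genes can be set side by side. In whole shoots, fewer cells of a type and less RNA per cell cannot be told apart.

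Plants of temperate regions gain freezing tolerance during days of non-freezing cold, a process called cold acclimation. In Arabidopsis the CBF transcription factors, made within hours of a temperature drop, bind a DNA motif named CRT/DRE in the promoters of cold-regulated (COR) genes. The COR proteins and sugars that then accumulate protect membranes and proteins from the loss of water that ice causes. Photosynthesis, growth and the circadian clock are adjusted during the same days.

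Of the 18713 genes, 97 were listed at exactly 0 in 1 of the 2 SW columns, and these have no ratio. Some zeros fall on genes that leaves express strongly. LHCA4, a light-harvesting protein of photosystem I, was at 3949 FPKM in cold and 0 in warm SW plants. RCA, the activase of the carbon-fixing enzyme Rubisco, was at 2194 FPKM in cold and 0 in warm SW plants. RBCS1A, a small subunit of Rubisco, was at 0 in both, as were LHCB1.1, LHCB1.2 and LHCB1.3. These zeros are treated as missing. Of the 22 genes at 0 in 1 column and at 20 FPKM or more in the other, 18 were not annotated as protein coding, and the remaining protein-coding genes were PDF2.1 at 42.9 FPKM in cold and 0 in warm SW plants and AT3G29633 at 0 in cold and 34.6 FPKM in warm SW plants. Leaf identity was plain from LHCB3, at 3342 FPKM in cold and 7323 FPKM in warm SW plants. All 6 flower markers, all 5 seed markers and 7 of the 8 root markers were below 1 FPKM in both groups. NRT2.1, the remaining root marker, was at 1.04 FPKM in cold and 1.54 FPKM in warm SW plants. The guard cell line genes MYB60, FAMA and SPCH stayed within 2-fold, with log2 ratios of -0.04, -0.18 and -0.52.

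The remaining 18616 genes had a ratio. Of these, 1511 (8.12%) were at least 2-fold higher in cold SW plants, 1200 (6.45%) were at least 2-fold lower and 15905 stayed within 2-fold, so that 14.6% were called in either direction. These shares are the background for the list counts below. Large differences ran mostly upward. A 4-fold difference was reached by 368 higher and 169 lower genes, and a 16-fold difference by 64 higher and 2 lower genes. Genes called higher held 23.0% of the summed deposited FPKM in cold plants and 7.37% in warm plants. Genes called lower held 4.44% in cold plants and 14.5% in warm plants. The direction of both differences is set by the calls. Missing values, such as those of RCA and LHCA4 in warm plants, count as 0 in these sums. The median log2 ratio of all genes was 0.03, and 55.7% of the called genes were higher. Scaling both columns to a list of reference genes, whose median log2 ratio was 0.37, moved the median of all genes to -0.37 and gave 772 genes higher and 2699 lower, or 22.2% higher. Of the 2710 called genes that had a ratio under that scaling, 0 changed sign. None could, because that scaling moved ratios by less than the 2-fold limit. It lowered the medians of all lists, and 11 of those described here had a median above 0 that it put below 0: starch breakdown, sugar transporters, proline, membrane lipids, flowering, chlorophyll breakdown, photoprotection, jasmonate, endoplasmic reticulum chaperones, dark and sugar starvation, and sulfur limitation. Just inside the limit stood AT5G23360, at 6.47 FPKM in cold and 2.73 FPKM in warm SW plants, and just outside it TAF14, at 6.39 FPKM in cold and 2.70 FPKM in warm SW plants.

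**Figure D1:**
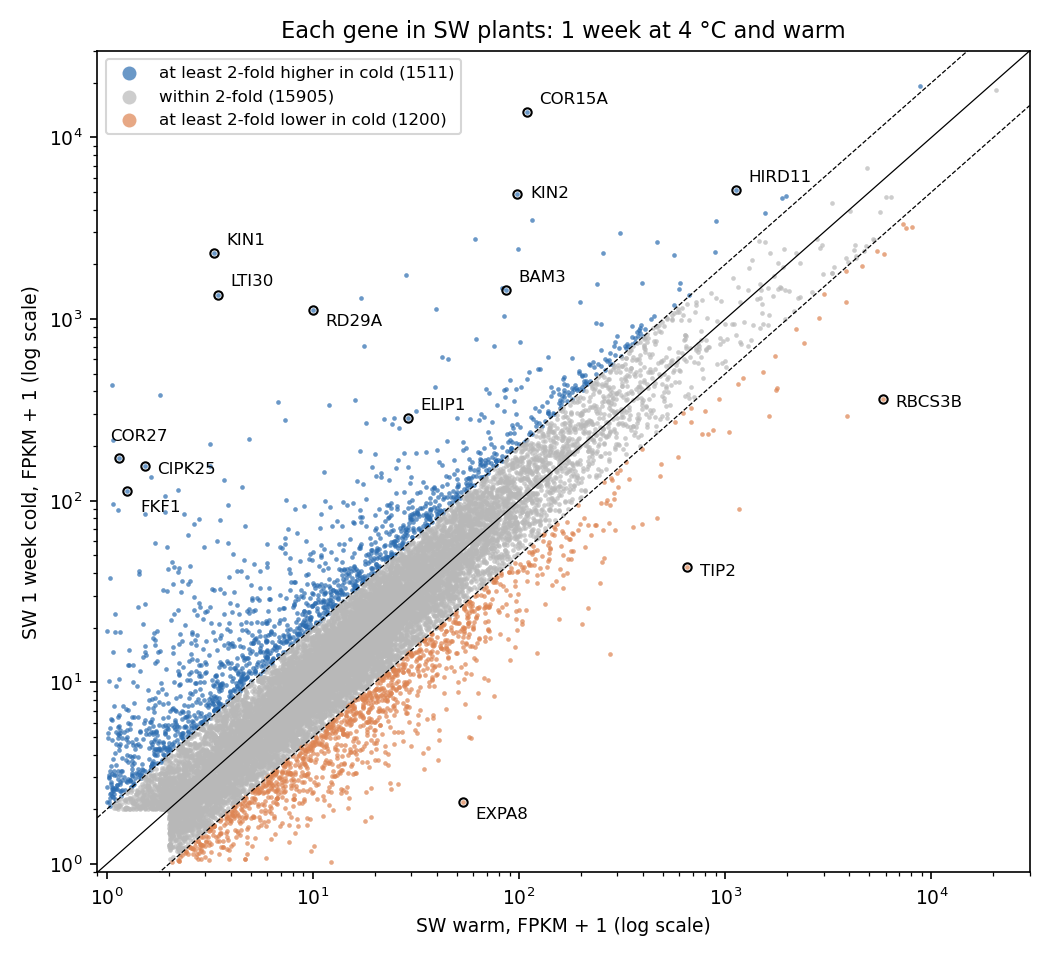
Each point is 1 gene with its FPKM + 1 in SW plants after 1 week at 4 °C on the vertical axis and in warm SW plants on the horizontal axis, both on log scales, with equality as a solid line and 2-fold differences as dashed lines. The 1511 genes called higher reach far from the line, up to KIN1, COR15A and LTI30, and the 1200 called lower lie closer to it, with RBCS3B, TIP2 and EXPA8 at the edge.

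The CBF genes were still high after 1 week. CBF3 was at 44.9 FPKM in cold and 1.09 FPKM in warm SW plants, a log2 ratio of 4.46. CBF2 was at 38.5 FPKM in cold and 0.436 FPKM in warm SW plants (4.78). CBF1 was lower than both in the cold, at 2.26 FPKM in cold and 0.0422 FPKM in warm SW plants (1.64). All 3 measured CBF genes were thus called higher. CBF4 and the related DDF1 and DDF2, which respond to drought, salt or other stress, stayed below 1 FPKM in both groups.

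Known regulators of the CBF genes differed less, with 2 of 14 higher, 1 lower and a median log2 ratio of -0.32. Under the reference scaling 1 was higher and 3 lower. ICE1, an activator of CBF3 named here after its values were seen, was level at 37.5 FPKM in cold and 35.7 FPKM in warm SW plants. MYB15, which represses the CBF genes, was at 4.97 FPKM in cold and 0.511 FPKM in warm SW plants (1.98). OST1, a kinase that stabilises ICE1, was at 27.4 FPKM in cold and 10.2 FPKM in warm SW plants (1.35). PIF4, a growth-promoting factor that represses CBF genes in long days, was at 14.6 FPKM in cold and 60.2 FPKM in warm SW plants (-1.97), the lowest ratio of the list. The abundant EIN3 and SIZ1 stayed within 2-fold, with log2 ratios of -0.54 and -0.60.

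Transcription factors that are known to appear in the cold together with the CBFs were higher in 8 of 15 cases and lower in none, with a median log2 ratio of 1.15. MYB73 had the largest ratio, at 69.7 FPKM in cold and 9.79 FPKM in warm SW plants (2.71). RAP2.1, a repressor that CBF proteins switch on, was at 15.4 FPKM in cold and 1.56 FPKM in warm SW plants (2.68). ZAT12, a zinc finger protein that dampens CBF expression, was at 28.3 FPKM in cold and 4.08 FPKM in warm SW plants (2.53). DEAR1, a relative of the CBFs, was at 5.97 FPKM in cold and 1.32 FPKM in warm SW plants (1.59). RAV1 was the most abundant factor of the list in cold plants at 75.6 FPKM in cold and 29.5 FPKM in warm SW plants, and MYB44, also abundant, was within 2-fold, with a log2 ratio of 0.72. Under the reference scaling 5 of the 15 were higher and 1 lower.

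The COR, KIN and RD29 genes held several of the largest ratios of the whole transcriptome. Whether CBF proteins act on each of them in these plants was not tested. Of 10 COR, KIN and RD29 genes, 9 were higher and none was lower, and the median log2 ratio was 4.1. KIN1, a small hydrophilic protein, was at 2312 FPKM in cold and 2.304 FPKM in warm SW plants, the largest log2 ratio of all genes with at least 5 FPKM in either group (9.45). COR15A, a chloroplast protein that stabilises membranes during freezing, was at 13809.5 FPKM in cold and 108 FPKM in warm SW plants (6.98). By deposited value it was number 3 among the genes of cold SW plants and number 1267 in warm SW plants. Genes whose zeros are treated as missing, such as RBCS1A and LHCB1.1, cannot be placed in these ranks. RD29A, a hydrophilic protein long used as a reporter of cold and drought, was at 1126 FPKM in cold and 8.97 FPKM in warm SW plants (6.82). RD29B, its neighbour in the genome and known for responding to abscisic acid, stayed low at 2.25 FPKM in cold and 0.132 FPKM in warm SW plants (1.52). Hence the tandem neighbours differed by far in level in the same cold plants.

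KIN2 was at 4888 FPKM in cold and 97.3 FPKM in warm SW plants (5.64) and COR15B at 2749 FPKM in cold and 60.3 FPKM in warm SW plants (5.49). Each has a close copy next to it, KIN1 and COR15A, and reads may be shared between copies, so the sums were also taken. COR15A and COR15B together were at 16558.6 FPKM in cold and 168.3 FPKM in warm SW plants (6.61), and KIN1 and KIN2 together at 7200.0 FPKM in cold and 99.6 FPKM in warm SW plants (6.16). The COR413 genes, which encode multispanning membrane proteins, differed less. COR413PM1 of the plasma membrane was at 1565 FPKM in cold and 237 FPKM in warm SW plants (2.72). COR413IM1 of the chloroplast inner membrane was at 389 FPKM in cold and 70.3 FPKM in warm SW plants (2.45). COR413IM2 was at 149 FPKM in cold and 70.8 FPKM in warm SW plants (1.06), close to the limit, and COR413PM2 was the member not called, at 53.0 FPKM in cold and 70.8 FPKM in warm SW plants (-0.41).

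**Figure D2:**
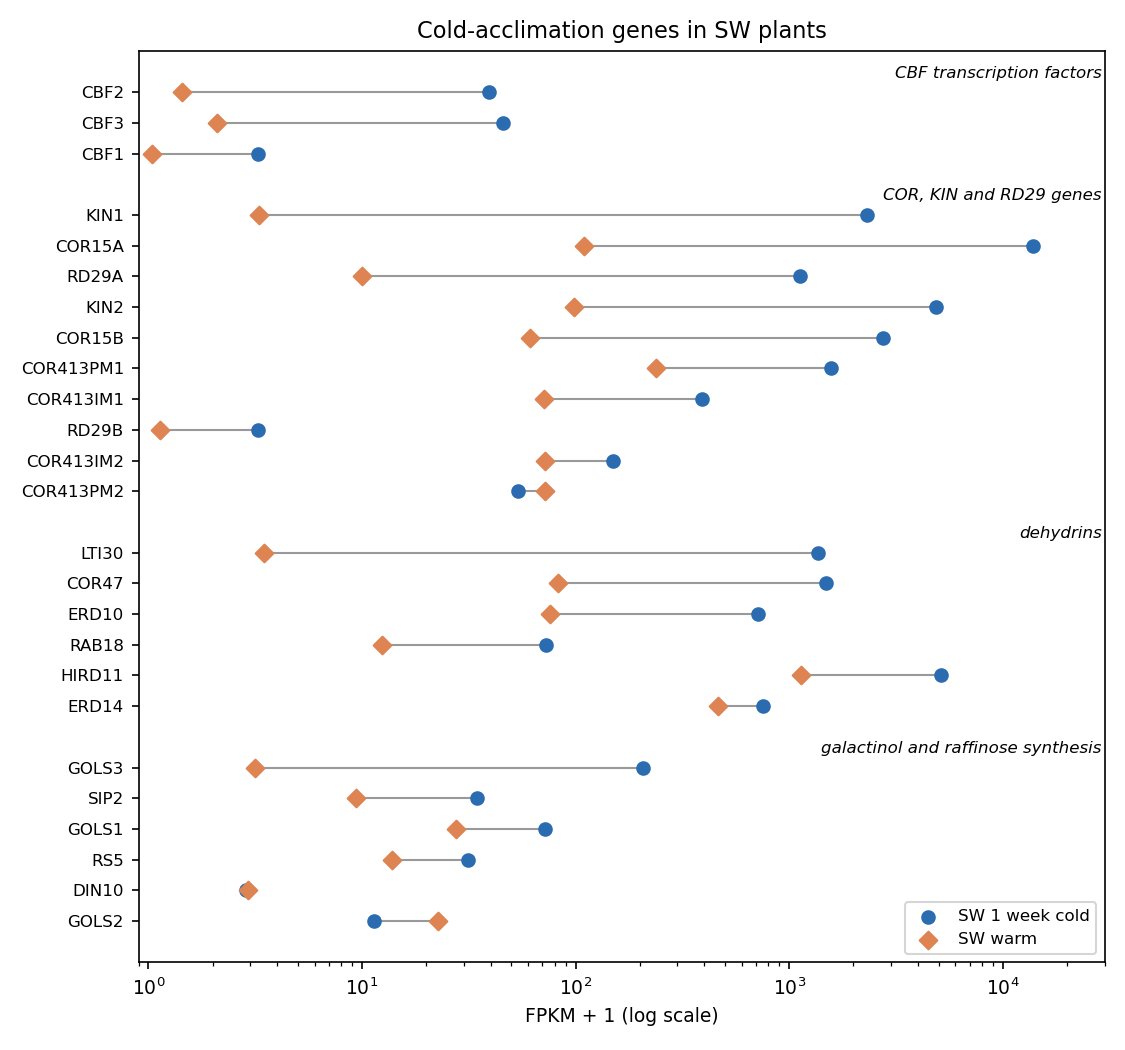
FPKM + 1 on a log scale for each measured CBF gene, COR, KIN or RD29 gene, dehydrin and gene of galactinol and raffinose synthesis, with SW plants after 1 week at 4 °C as circles and warm SW plants as diamonds. Cold values lie to the right for all but COR413PM2, GOLS2 and DIN10, and COR15A reaches 13809.5 FPKM.

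The promoters of 4 of these genes are shown because they carry, or lack, the letters that CBF proteins bind. Each line gives the bases just before the annotated gene start in TAIR10.1 (RefSeq), 5′ to 3′ on the strand of the gene. Capitals mark the CRT/DRE core CCGAC and the core ACGTG of the abscisic acid response element (ABRE), on either strand. COR15A is at chr2:17712331-17712630 on the minus strand, RD29A at chr5:21240417-21240716, LTI30 at chr3:18940429-18940642 and KIN1 at chr5:5209417-5209716, the last 3 on the plus strand. The LTI30 window has 214 bases because an exon of its neighbour lies before it. LTI30 is a dehydrin described with its family.
COR15A: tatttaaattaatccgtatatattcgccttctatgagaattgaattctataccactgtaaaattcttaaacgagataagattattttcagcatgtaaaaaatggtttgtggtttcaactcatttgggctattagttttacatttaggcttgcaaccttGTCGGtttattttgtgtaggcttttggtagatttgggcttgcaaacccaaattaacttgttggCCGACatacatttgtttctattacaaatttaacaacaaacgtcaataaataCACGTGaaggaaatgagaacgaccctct
RD29A: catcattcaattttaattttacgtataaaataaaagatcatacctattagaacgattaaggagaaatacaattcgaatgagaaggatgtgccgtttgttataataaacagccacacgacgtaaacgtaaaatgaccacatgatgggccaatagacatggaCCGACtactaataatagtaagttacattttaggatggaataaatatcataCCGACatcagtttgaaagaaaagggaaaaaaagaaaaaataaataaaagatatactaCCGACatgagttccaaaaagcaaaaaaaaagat
LTI30: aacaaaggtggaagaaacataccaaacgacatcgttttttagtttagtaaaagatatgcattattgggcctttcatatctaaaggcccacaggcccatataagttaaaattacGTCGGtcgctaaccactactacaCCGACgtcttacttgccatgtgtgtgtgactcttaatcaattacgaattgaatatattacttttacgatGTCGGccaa
KIN1: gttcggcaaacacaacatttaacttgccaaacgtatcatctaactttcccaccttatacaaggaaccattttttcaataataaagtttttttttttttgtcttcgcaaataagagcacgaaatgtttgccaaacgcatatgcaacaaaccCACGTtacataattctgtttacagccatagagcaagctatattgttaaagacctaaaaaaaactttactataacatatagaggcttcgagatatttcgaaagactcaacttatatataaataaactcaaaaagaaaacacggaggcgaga

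The RD29A window holds 3 CRT/DRE cores, beginning 140, 90 and 33 bases before the gene start and all on the strand of the gene. LTI30 also has 3, at 101, 78 and 9 bases, the first and last on the opposite strand. COR15A has 2, at 142 and 79 bases, and an ABRE core on both strands in the palindrome CACGTG at 28 to 23 bases. KIN1, the gene with the largest ratio, has no CRT/DRE core in its 300 bases and 1 ABRE core, at 150 bases. The absence says only that the letters are not in this window. The windows printed here were picked from 21 scanned after their motifs were seen.

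Across all 27443 protein-coding nuclear genes, 13.9% had a CRT/DRE core within 300 bases before the start, on either strand. The share was 30.2% among genes at least 16-fold higher in cold SW plants (19 of 63, exact 95% binomial interval 19.2 to 43.0%), 21.3% among those 4-fold to under 16-fold higher (63 of 296) and 17.5% among those 2-fold to under 4-fold higher (194 of 1106). It was 15.3% among genes within 2-fold (2349 of 15388) and 11.1% among those at least 2-fold lower (126 of 1138, interval 9.31 to 13%). The share was thus smaller in each class from the genes highest in the cold to those lower in the cold. The ABRE core was found in 58.7% of the genes at least 16-fold higher and in 42.9% and 29.2% of the next classes. It was found in 25.3% of those within 2-fold, in 26.3% of those lower and in 25.6% of all genes. ACGTG also lies within the G-box CACGTG, which other factors bind. The intervals cover counting error over genes, which are not independent, and no test was made. Of the 10 COR, KIN and RD29 genes, 6 had a CRT/DRE core in the window, and so did 1 of the 6 dehydrins.

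**Figure D3:**
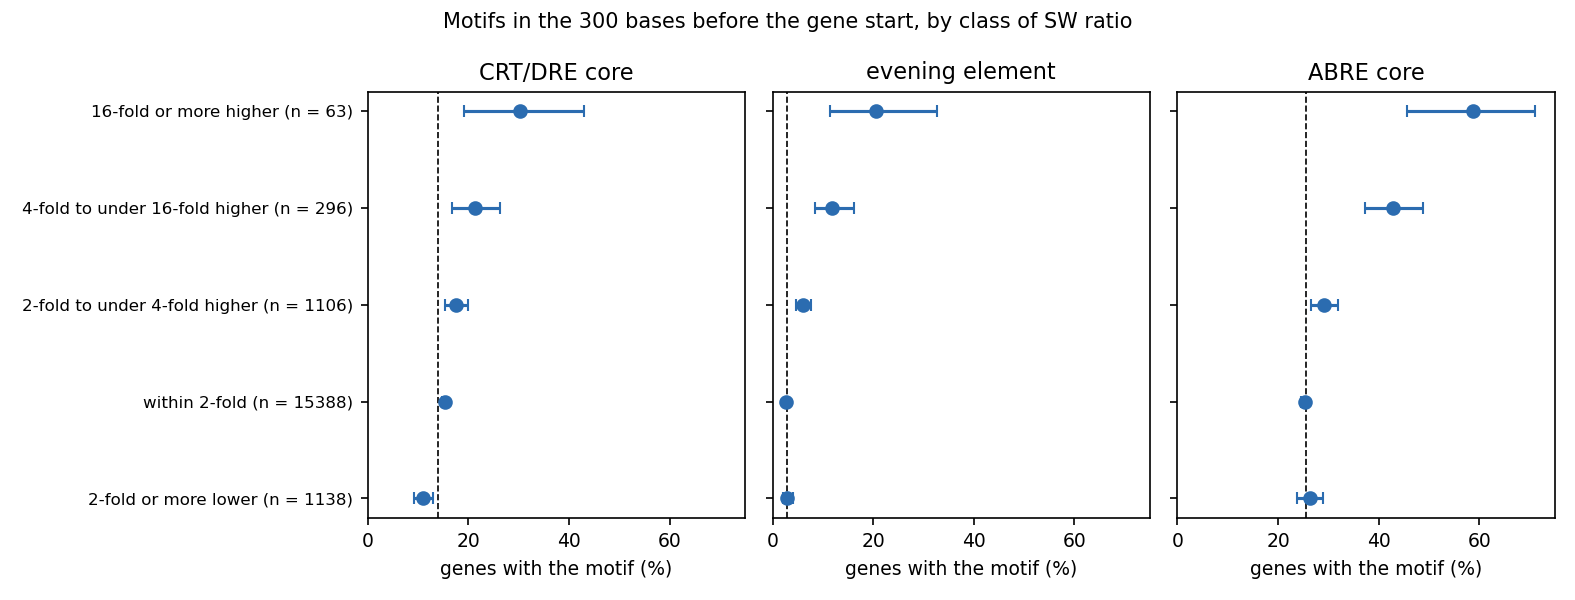
Percent of protein-coding genes with the CRT/DRE core (left), the evening element (middle) or the ABRE core (right) in the 300 bases before the gene start, by class of the SW ratio, with exact 95% binomial intervals as bars and the share of all genes as a dashed line. For each motif the share is largest in the class at least 16-fold higher in the cold, at 30.2%, 20.6% and 58.7%.

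Dehydrins, hydrophilic proteins that shield membranes and enzymes when cells lose water, were higher in 5 of 6 measured cases, with a median log2 ratio of 2.89. LTI30 came first at 1364 FPKM in cold and 2.48 FPKM in warm SW plants (8.62). COR47 was at 1490.4 FPKM in cold and 81.8 FPKM in warm SW plants (4.17) and ERD10 at 711 FPKM in cold and 74.5 FPKM in warm SW plants (3.24). These 3 are dehydrins known from the cold. RAB18, a dehydrin of the abscisic acid response, was at 71.5 FPKM in cold and 11.4 FPKM in warm SW plants (2.55). HIRD11, a metal-binding dehydrin, was abundant already in the warm, at 5135 FPKM in cold and 1131 FPKM in warm SW plants (2.18). It was number 5 by deposited value in cold plants, a rank that leaves out genes with missing values. ERD14 was within 2-fold at 754 FPKM in cold and 461 FPKM in warm SW plants (0.71). XERO1 and 3 further dehydrins were below 1 FPKM in both groups.

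Other late embryogenesis abundant (LEA) proteins, a class first known from drying seeds, were higher in 4 of 7 cases and lower in 1, with a median of 2.09. LEA14 was the most abundant in cold plants, at 772 FPKM in cold and 60.9 FPKM in warm SW plants (3.64). LEA7 and LEA4-5 were near absent in the warm, with LEA7 at 40.1 FPKM in cold and 0.438 FPKM in warm SW plants (4.84) and LEA4-5 at 12.8 FPKM in cold and 0.497 FPKM in warm SW plants (3.20). SAG21, a mitochondrial LEA protein, was at 411 FPKM in cold and 96.0 FPKM in warm SW plants (2.09). AT2G46140 was the member called lower, at 3.55 FPKM in cold and 13.4 FPKM in warm SW plants (-1.66). The seed proteins EM1 and EM6 and 4 more LEA genes did not reach 1 FPKM in either group.

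Soluble sugars protect freezing cells, and raffinose is made from galactinol. Of 6 measured genes of galactinol and raffinose synthesis, 4 were higher and none lower, with a median of 1.28; the reference scaling left 2 higher and 1 lower. GOLS3, the galactinol synthase known as a CBF target, was at 205 FPKM in cold and 2.16 FPKM in warm SW plants (6.02). GOLS1 was at 70.7 FPKM in cold and 26.4 FPKM in warm SW plants (1.39), and GOLS2, known from drought, ran the other way at 10.4 FPKM in cold and 21.6 FPKM in warm SW plants (-0.99), within 2-fold but close to the limit. The galactinol synthases therefore did not share a direction. RS5, a raffinose synthase, was at 30.3 FPKM in cold and 12.8 FPKM in warm SW plants (1.18), and SIP2, an enzyme that cleaves raffinose, at 33.7 FPKM in cold and 8.38 FPKM in warm SW plants (1.89).

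Starch breakdown feeds these sugars, and its genes split evenly: of 23, 6 were higher and 6 lower, with a median of 0.00. The reference scaling put that median at -0.42. BAM3, the main chloroplast beta-amylase that releases maltose from starch in leaves, was at 1441 FPKM in cold and 85.02 FPKM in warm SW plants (4.07). ISA3, a debranching enzyme of starch breakdown, was at 128 FPKM in cold and 15.4 FPKM in warm SW plants (2.97). PWD, the kinase that adds phosphate to the granule surface, was at 129 FPKM in cold and 22.4 FPKM in warm SW plants (2.48). PHS2, a cytosolic glucan phosphorylase, was at 299.8 FPKM in cold and 64.4 FPKM in warm SW plants (2.2), and the phosphatase SEX4 at 231 FPKM in cold and 86.5 FPKM in warm SW plants. These act directly on the granule or on its products. The members were named for their ratios or their abundance, so their roles do not describe higher and lower genes at large. LSF2, named after its value was seen and annotated in the same phosphatase family as SEX4, was called lower, with a log2 ratio of -1.27. Among those lower were BAM9, a beta-amylase relative without known catalytic activity, at 4.82 FPKM in cold and 20.1 FPKM in warm SW plants (-1.86) and BAM5, a beta-amylase outside the chloroplast, at 1.68 FPKM in cold and 7.31 FPKM in warm SW plants (-1.63). ISA1, a debranching enzyme that serves starch synthesis, was at 10.6 FPKM in cold and 31.5 FPKM in warm SW plants (-1.49), and BAM6 had a log2 ratio of -1.57.

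Among 13 genes of sucrose synthesis and cleavage, 5 were higher and none lower, with a median of 0.71. Of these 13, the reference scaling left 2 higher and 1 lower. SUS1, a sucrose synthase, was at 285 FPKM in cold and 23.6 FPKM in warm SW plants (3.54). SPS2F, a sucrose phosphate synthase, was at 11.4 FPKM in cold and 2.71 FPKM in warm SW plants (1.74). SUS3 and SUS2 stayed below 5 FPKM in both groups. The abundant FBP, the cytosolic bisphosphatase that opens the sucrose pathway, was within 2-fold at 223 FPKM in cold and 264 FPKM in warm SW plants (-0.24), as was AT2G35840, a sucrose phosphatase (0.79). Sugar transporters were called in both directions, 3 higher and 2 lower of 9, or 2 higher and 3 lower under the reference scaling. SWEET12, which releases sucrose towards the phloem, was at 25.0 FPKM in cold and 7.04 FPKM in warm SW plants (1.70). TMT2, which loads sugars into the vacuole, was at 67.1 FPKM in cold and 23.0 FPKM in warm SW plants (1.51). SWEET17, a fructose carrier that lets sugar out of the vacuole, was at 9.57 FPKM in cold and 66.6 FPKM in warm SW plants (-2.68), the lowest ratio of the list. TMT1 was level (-0.09).

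Proline, an osmolyte of the cold, is made by P5CS enzymes. P5CS2 was at 278 FPKM in cold and 63.2 FPKM in warm SW plants (2.12), and P5CS1, already abundant in the warm, at 332 FPKM in cold and 236 FPKM in warm SW plants (0.49). Of the 10 proline genes, P5CS2 alone was called higher and the carrier PROT1 alone lower (-1.02). These counts are near the shares of all genes, 8.12% higher and 6.45% lower. ERD5, which degrades proline, was level at 2.46 FPKM in cold and 2.54 FPKM in warm SW plants.

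Membranes are remodelled in the cold, with more unsaturated fatty acids. Of 16 genes of membrane lipids, 2 were higher and none lower, or 2 higher and 2 lower under the reference scaling. Of all genes, 8.12% were higher and 6.45% lower, so the list as a whole was near the background. ADS2, a desaturase of cold acclimation, was at 411 FPKM in cold and 85.9 FPKM in warm SW plants (2.25). DGAT1, which makes storage lipid from diacylglycerol, was at 24.0 FPKM in cold and 1.23 FPKM in warm SW plants (3.49). The abundant desaturase FAD2 was level at 269 FPKM in cold and 268 FPKM in warm SW plants, and ACBP6, a carrier of acyl-CoA, was within 2-fold (-0.34). Proteins of the lipid transfer and EARLI1 type, secreted or membrane-bound carriers, were higher in 7 of 10 cases and lower in none, with a median of 1.63. AZI1, needed for priming of systemic immunity, was at 1752 FPKM in cold and 27.2 FPKM in warm SW plants (5.96). EARLI1, its tandem neighbour, was at 1143 FPKM in cold and 38.5 FPKM in warm SW plants (4.86), and reads may be shared between these similar copies. LTP1, the most abundant of the warm group, was within 2-fold at 1249 FPKM in cold and 955 FPKM in warm SW plants (0.39).

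Genes of the circadian clock gave the most higher genes of any list, with 16 of 28 higher, 1 lower and a median of 1.52. The clock is a set of transcription factors that repress each other in turn through the day, and all samples were taken at the same hour of the morning. COR27, a cold-responsive night-time repressor, was at 171 FPKM in cold and 0.145 FPKM in warm SW plants (7.23). AT4G33980, its relative known as COR28, was at 95.3 FPKM in cold and 0.0719 FPKM in warm SW plants (6.49). FKF1, a blue-light receptor of the late afternoon, was at 112 FPKM in cold and 0.261 FPKM in warm SW plants (6.48). ELF4, which acts in the evening complex, was at 135 FPKM in cold and 0.633 FPKM in warm SW plants (6.38). These 4 genes were all below 1 FPKM in warm plants at this hour.

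Further evening genes, named after their values were seen, had the same direction. PRR5, a repressor of the morning genes, was at 155 FPKM in cold and 2.18 FPKM in warm SW plants (5.61). LUX, which brings that complex to DNA, was at 31.0 FPKM in cold and 0.954 FPKM in warm SW plants (4.03). TOC1, the evening repressor that closes the loop with the morning genes, was at 68.8 FPKM in cold and 6.56 FPKM in warm SW plants (3.21), and GI, a partner of FKF1, at 56.8 FPKM in cold and 12.4 FPKM in warm SW plants (2.11). The central morning genes CCA1 and LHY had smaller ratios. CCA1 was at 184 FPKM in cold and 62.1 FPKM in warm SW plants (1.55), and LHY, also named after its value was seen, had a log2 ratio of 1.49. Far above both ratios was that of RVE2 (5.50), a MYB factor of the CCA1 type named after its values were seen, at 85.6 FPKM in cold and 0.917 FPKM in warm SW plants. The abundant LNK3 and LNK2, coactivators of the morning, were within 2-fold (0.87 and -0.71). RVE7 was the member called lower, at 0.875 FPKM in cold and 3.17 FPKM in warm SW plants (-1.15). The named evening genes and the morning genes CCA1 and LHY were thus higher in the same cold plants, and with a single hour sampled a changed phase and a changed mean level cannot be told apart.

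The promoters of PRR5 and BBX8, genes with evening elements, are shown next, with capitals marking the evening element AAAATATCT, which morning factors of the CCA1 type bind, and the CRT/DRE core where present, on either strand. PRR5 is at chr5:8358547-8358846 and BBX8 at chr5:19563833-19564132, both on the minus strand of TAIR10.1. BBX8, a B-box zinc finger gene, was chosen after its values were seen, at 83.1 FPKM in cold and 1.36 FPKM in warm SW plants (5.15).
PRR5: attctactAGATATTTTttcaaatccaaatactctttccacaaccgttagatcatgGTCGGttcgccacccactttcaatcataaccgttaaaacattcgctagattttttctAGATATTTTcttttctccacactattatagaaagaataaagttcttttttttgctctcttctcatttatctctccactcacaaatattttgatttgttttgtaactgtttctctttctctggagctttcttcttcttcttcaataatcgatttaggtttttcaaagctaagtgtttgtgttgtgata
BBX8: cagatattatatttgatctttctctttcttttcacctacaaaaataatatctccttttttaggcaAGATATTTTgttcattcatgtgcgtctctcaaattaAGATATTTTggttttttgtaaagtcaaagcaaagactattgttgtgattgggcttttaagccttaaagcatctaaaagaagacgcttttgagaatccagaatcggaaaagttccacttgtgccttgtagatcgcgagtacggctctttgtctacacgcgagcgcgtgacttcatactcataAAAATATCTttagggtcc

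PRR5 holds 2 evening elements, beginning 292 and 187 bases before the start, with a CRT/DRE core at 244 bases between them. BBX8 holds 3, at 235, 199 and 18 bases. The evening element was found in 2.79% of all windows, in 20.6% of the genes at least 16-fold higher in cold SW plants (13 of 63), in 11.8% and 6.06% of the next classes, in 2.63% of those within 2-fold and in 2.90% of those lower. Of the 28 measured clock genes 7 had it. As with the other motifs, a match is a run of letters and not a bound site.

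Of 20 measured flowering genes, 4 were higher, 1 was lower and 15 stayed within 2-fold. Of all genes, 8.12% were higher and 6.45% lower. The median of the flowering list was 0.10, which the reference scaling moved to -0.29. FLC, the floral repressor that long winters silence, was abundant and level at 176 FPKM in cold and 167 FPKM in warm SW plants (0.08). Its relatives SVP and FLM were also within 2-fold (-0.28 and 0.12). VIN3, which is switched on by lasting cold and starts the silencing of FLC, was at 1.67 FPKM in cold and 0.00458 FPKM in warm SW plants (1.41). SOC1, a promoter of flowering, was at 27.3 FPKM in cold and 4.07 FPKM in warm SW plants (2.48), and MAF3, an FLC relative, at 82.0 FPKM in cold and 22.8 FPKM in warm SW plants (1.80). TEM2, a repressor of the florigen gene, was the member called lower, at 11.1 FPKM in cold and 43.4 FPKM in warm SW plants (-1.88). FT and TSF, the florigen genes, were listed at 0 in both groups.

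**Figure D4:**
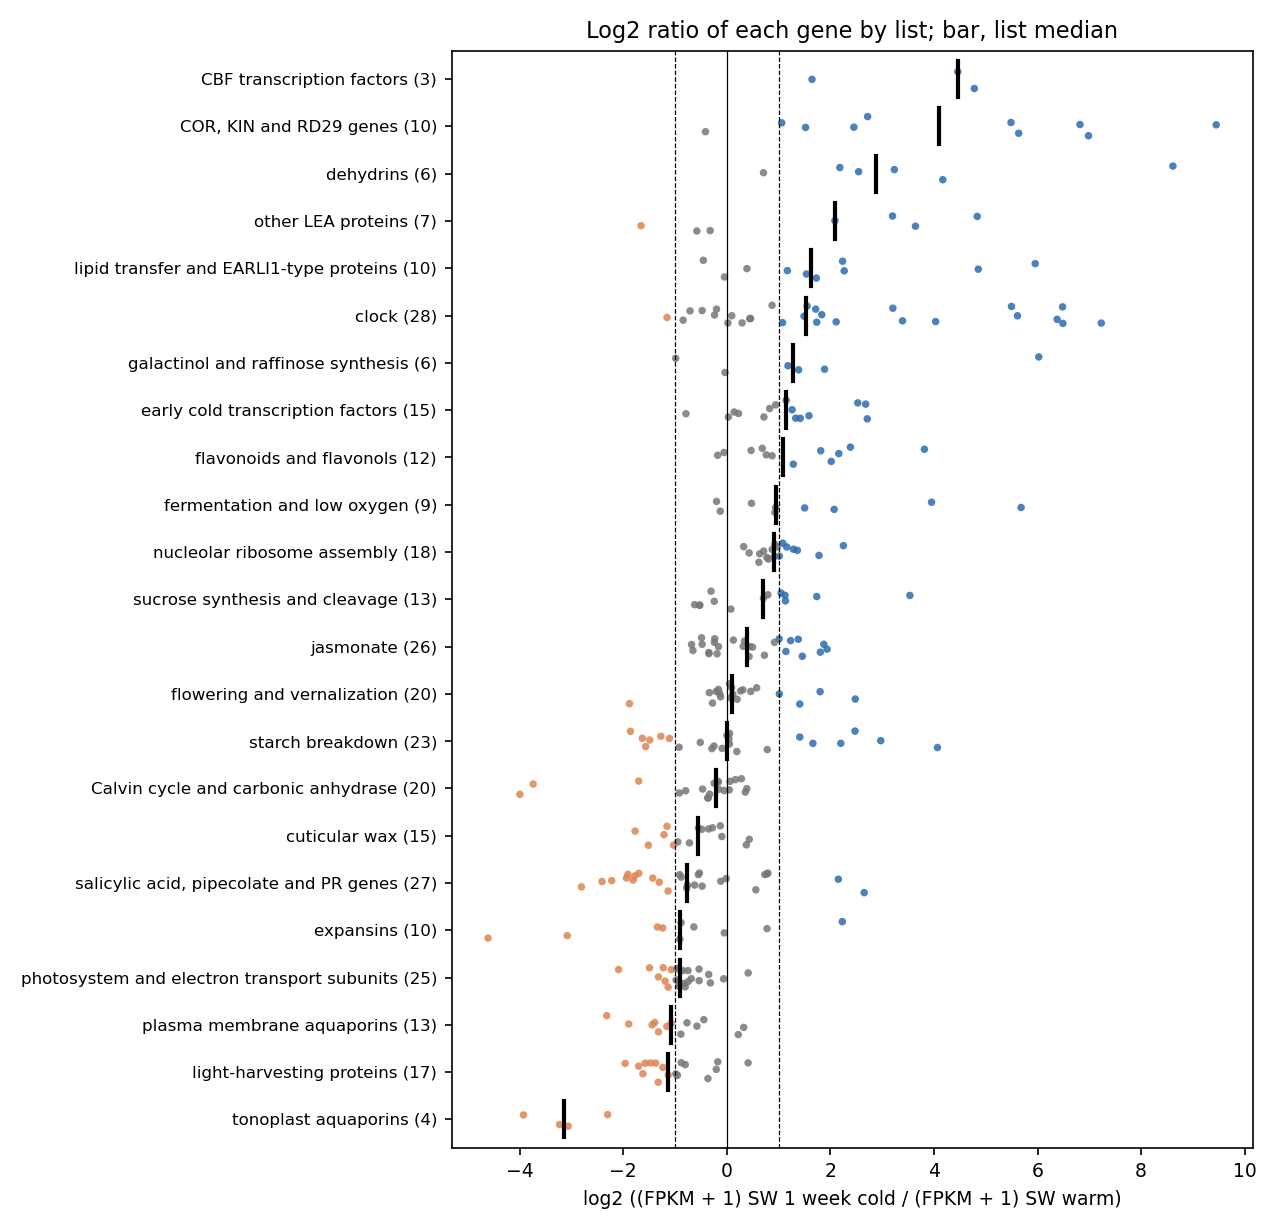
Each point is a gene with its log2 ratio of FPKM + 1 between SW plants after 1 week at 4 °C and warm SW plants, grouped by list, with the number of genes in parentheses, the median as a black bar and 2-fold limits as dashed lines. Medians run from 4.46 for the CBF transcription factors to -3.15 for the tonoplast aquaporins.

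Photosynthesis genes lay on the other side. Of 17 light-harvesting genes, which encode the chlorophyll-binding antenna, none was higher, 9 were lower and the median was -1.13. LHCB3 and LHCB5 of photosystem II had log2 ratios of -1.13 and -1.24, with LHCB5 at 3184 FPKM in cold and 7503 FPKM in warm SW plants. LHB1B2, the most abundant of the list in warm plants, was at 3207 FPKM in cold and 8039.9 FPKM in warm SW plants (-1.33). LHCB6, a minor antenna protein, was at 1248 FPKM in cold and 3839.9 FPKM in warm SW plants (-1.62), and LHCB4.3, LHCA6 and LHCB4.2 had log2 ratios of -1.96, -1.70 and -1.58. LHCA5, a rarer antenna protein named after its value was seen, was the member above 0 (0.41).

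Subunits of the photosystems and the electron transport chain were lower in 7 of 25 cases and higher in none, with a median of -0.91. Many sat close to the limit, and 19 were lower under the reference scaling. PSAD2 of photosystem I was at 417 FPKM in cold and 1778 FPKM in warm SW plants (-2.09), PSAH2 had a log2 ratio of -1.49, PSAE1 of -1.32 and the oxygen-evolving protein PSBP1 of -1.23. PSBR, the most abundant member in warm plants, was within 2-fold at 3870.4 FPKM in cold and 5611 FPKM in warm SW plants (-0.54), PSAO was at 2385 FPKM in cold and 5450.0 FPKM in warm SW plants, and FD2, the main leaf ferredoxin, was the member above 0, at 4365 FPKM in cold and 3280.0 FPKM in warm SW plants (0.41). All other members had ratios below 0.

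The Calvin cycle, which fixes carbon, differed less, with 3 of 20 lower, none higher and a median of -0.21. Among its members the Rubisco small subunits RBCS3B and RBCS2B stood apart, with RBCS3B at 364 FPKM in cold and 5817 FPKM in warm SW plants (-4.0) and RBCS2B at 290.2 FPKM in cold and 3892 FPKM in warm SW plants (-3.74). RBCS1B, also named after its value was seen, was level at 1439.9 FPKM in cold and 1494 FPKM in warm SW plants. The small subunit genes are near copies that may share reads, RBCS1A is listed at 0, and the deposited values of the 4 sum to 2094 FPKM in cold and 11203 FPKM in warm SW plants (-2.42). CA1, a chloroplast carbonic anhydrase, was at 739 FPKM in cold and 2406 FPKM in warm SW plants (-1.70), and GAPA1, a dehydrogenase of the cycle, was level at 2029 FPKM in cold and 1809 FPKM in warm SW plants (0.17).

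Genes of pigment synthesis and protection differed less as groups. Of 11 chlorophyll synthesis genes 2 were higher and none lower, or 1 higher and 2 lower under the reference scaling. The called genes were PORA at 75.7 FPKM in cold and 14.7 FPKM in warm SW plants (2.29) and PORB at 1466 FPKM in cold and 593 FPKM in warm SW plants (1.3), both light-dependent reductases of the pathway. Of 7 photoprotection genes 2 were higher, the early light-induced proteins ELIP2, at 118 FPKM in cold and 3.52 FPKM in warm SW plants (4.71), and ELIP1, at 285 FPKM in cold and 27.9 FPKM in warm SW plants (3.31). PSBS, which dissipates excess light, was level at 2298 FPKM in cold and 2207 FPKM in warm SW plants. Of 11 genes of chlorophyll breakdown and senescence only the factor ORE1 was called higher (1.51). That count is near the background, since 8.12% of all genes were higher. SAG12, the classical senescence marker, was below 1 FPKM in both groups. Antioxidant enzymes went both ways, with 3 of 13 higher and 2 lower, or 1 higher and 4 lower under the reference scaling. FSD2, an iron superoxide dismutase of chloroplasts, was at 58.4 FPKM in cold and 19.0 FPKM in warm SW plants (1.57), and CAT2, the catalase of photorespiration, at 361 FPKM in cold and 935 FPKM in warm SW plants (-1.37). CAT3, the most abundant of the list, was within 2-fold at 1798 FPKM in cold and 3294 FPKM in warm SW plants (-0.87).

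Defence genes of salicylic acid and pipecolate, the signals of resistance to biotrophic pathogens, were lower in 11 of 27 cases and higher in 2, with a median of -0.77. WRKY70, a transcription factor of the pathway, was at 21.4 FPKM in cold and 156 FPKM in warm SW plants (-2.81). NIMIN1, which binds the receptor NPR1, was at 2.76 FPKM in cold and 19.0 FPKM in warm SW plants (-2.41), WRKY38 at 1.53 FPKM in cold and 10.8 FPKM in warm SW plants (-2.22), and EDS1, a hub of resistance signalling, at 16.7 FPKM in cold and 67.0 FPKM in warm SW plants (-1.94). The secreted antimicrobial proteins had ratios above 0. PR5 was at 1240.3 FPKM in cold and 196 FPKM in warm SW plants (2.65), while PR1 was at 1246 FPKM in cold and 719.8 FPKM in warm SW plants (0.79) and PR2 at 491 FPKM in cold and 333 FPKM in warm SW plants (0.56), both within 2-fold. UGT76B1, which adds glucose to salicylic acid and related signals, was the other member called higher, at 10.14 FPKM in cold and 1.504 FPKM in warm SW plants (2.15). These members were named for their ratios or their abundance, so their opposite signs do not describe regulators and secreted proteins at large. In the whole list 6 of 27 genes had ratios above 0.

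Jasmonate genes were higher in 8 of 26 cases and lower in none, with a median of 0.39. Under the reference scaling 4 were higher, 2 lower and the median was -0.03. PDF1.2C and PDF1.2A, defensins of the jasmonate and ethylene response that may share reads, were at 85.2 FPKM in cold and 21.5 FPKM in warm SW plants and at 270.2 FPKM in cold and 73.0 FPKM in warm SW plants, with log2 ratios of 1.94 and 1.87. JAZ1, a repressor that jasmonate both degrades and induces, was at 79.7 FPKM in cold and 22.1 FPKM in warm SW plants (1.81), and JAZ5 had a log2 ratio of 1.46. AOC2, an enzyme of jasmonate synthesis, was at 647 FPKM in cold and 275 FPKM in warm SW plants (1.23), and LOX2 was within 2-fold at 1195 FPKM in cold and 722 FPKM in warm SW plants (0.73).

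Glucosinolates are the sulfur-rich defence compounds of the cabbage family. Of 19 aliphatic genes 1 was higher and 1 lower, no more than the 8.12% higher and 6.45% lower of all genes. Under the reference scaling 4 were lower. The called genes were FMOGSOX4 at 49.6 FPKM in cold and 3.08 FPKM in warm SW plants (3.63) and FMOGSOX3 at 55.4 FPKM in cold and 116 FPKM in warm SW plants (-1.06), related oxygenases of the side chain with opposite signs. Of 13 indolic genes 2 were higher and 1 lower, with a median of -0.82, and 7 were lower under the reference scaling. MYB34, an activator of indolic synthesis, was at 3.94 FPKM in cold and 11.8 FPKM in warm SW plants (-1.37), and its relative MYB122, near absent in the warm, at 3.46 FPKM in cold and 0.149 FPKM in warm SW plants (1.96).

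Flavonoid and flavonol genes, which make light-screening compounds, were higher in 6 of 12 cases and lower in none, with a median of 1.08. MYB111, an activator of flavonol synthesis, was at 33.8 FPKM in cold and 1.47 FPKM in warm SW plants (3.82). CHS, the entry enzyme, was at 615 FPKM in cold and 137 FPKM in warm SW plants (2.16). CHI, F3H and FLS1, the next steps up to flavonols, had log2 ratios of 2.02, 1.81 and 2.39. The branch to anthocyanins, the red pigments, did not follow: 0 of 12 genes were called in either direction. DFR, its first enzyme, was at 4.76 FPKM in cold and 6.28 FPKM in warm SW plants (-0.34), LDOX at 10.05 FPKM in cold and 9.64 FPKM in warm SW plants, and PAP1, its activator, at 12.6 FPKM in cold and 7.77 FPKM in warm SW plants (0.64). MYBL2, its repressor, was at 67.2 FPKM in cold and 133 FPKM in warm SW plants (-0.97), just short of the limit.

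Of the hormones of stress and growth, abscisic acid genes showed a few large ratios. NCED3, the key enzyme of its synthesis, was at 7.16 FPKM in cold and 0.651 FPKM in warm SW plants (2.31), and CYP707A1, an enzyme that degrades it, at 10.9 FPKM in cold and 0.938 FPKM in warm SW plants (2.62). No other of the 7 measured synthesis and catabolism genes was called. In signalling, 3 of 11 genes were higher and none lower, led by the transcription factor ABF1 at 76.6 FPKM in cold and 12.1 FPKM in warm SW plants (2.57), with the phosphatases HAI2 (2.19) and ABI1 (1.21) behind it. Gibberellin genes had 1 of 14 higher and 1 lower, near the 8.12% higher and 6.45% lower of all genes. With the reference scaling none was higher and 5 were lower. The called genes were GA2OX6 (1.11) and GA2OX1 (-1.32), both low-level enzymes that inactivate the hormone. RGA, the most abundant repressor of its signalling, was at 27.1 FPKM in cold and 53.8 FPKM in warm SW plants (-0.96).

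Genes of cell expansion were called in both directions. Expansins loosen the cell wall, and of 10 measured, 4 were lower and 1 higher, with a median of -0.90. With the reference scaling 7 were lower and 1 higher. EXPA8 was at 1.19 FPKM in cold and 52.5 FPKM in warm SW plants, the lowest log2 ratio of all genes with at least 5 FPKM in either group (-4.61). EXPA1 was at 13.5 FPKM in cold and 121 FPKM in warm SW plants (-3.08), and EXPA10 was the exception at 80.0 FPKM in cold and 16.3 FPKM in warm SW plants (2.23). XTH enzymes, which cut and rejoin xyloglucan, split into 4 higher and 3 lower of 18, or 2 higher and 5 lower with the reference scaling. XTH7 was at 12.3 FPKM in cold and 89.9 FPKM in warm SW plants (-2.77) and XTH31 at 9.49 FPKM in cold and 53.1 FPKM in warm SW plants (-2.37), while XTH18 was at 6.25 FPKM in cold and 0.595 FPKM in warm SW plants (2.18). XTH24, the most abundant, was level at 139 FPKM in cold and 139 FPKM in warm SW plants.

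Aquaporins are water channels. All 4 measured tonoplast aquaporins, which sit in the vacuole membrane, were lower, with a median of -3.15. TIP2 was at 42.0 FPKM in cold and 653 FPKM in warm SW plants (-3.93), DELTA-TIP at 24.7 FPKM in cold and 214 FPKM in warm SW plants (-3.07) and GAMMA-TIP at 32.0 FPKM in cold and 162 FPKM in warm SW plants (-2.30). TIP2;2 was at 1.76 FPKM in cold and 24.9 FPKM in warm SW plants (-3.23). Every member was therefore at least 4-fold lower in the cold. Of 13 plasma membrane aquaporins 7 were lower and none higher, with a median of -1.08. PIP2B was at 18.5 FPKM in cold and 96.6 FPKM in warm SW plants (-2.32) and PIP1;5 at 46.9 FPKM in cold and 177 FPKM in warm SW plants (-1.89). The abundant PIP1B and PIP2A were at 322 FPKM in cold and 680.2 FPKM in warm SW plants (-1.08) and at 271 FPKM in cold and 678 FPKM in warm SW plants (-1.32). Cuticular wax genes, which seal the leaf surface, were lower in 5 of 15 cases and higher in none. KCS1, an elongase of fatty acids, was at 14.6 FPKM in cold and 52.2 FPKM in warm SW plants (-1.77), CER1, which makes alkanes, at 8.71 FPKM in cold and 26.7 FPKM in warm SW plants (-1.52), and KCS6 at 75.3 FPKM in cold and 169 FPKM in warm SW plants (-1.16).

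Ribosomes are put together in the nucleolus. All 18 measured nucleolar assembly genes had ratios above 0, 7 were called higher and the median was 0.92. FIB2, a fibrillarin that methylates ribosomal RNA, was at 212 FPKM in cold and 43.6 FPKM in warm SW plants (2.25). AT1G52930, a Brix-domain protein, was at 109 FPKM in cold and 31.0 FPKM in warm SW plants (1.78). NUC1, a nucleolin and the most abundant member, was within 2-fold at 421 FPKM in cold and 274 FPKM in warm SW plants (0.62). Under the reference scaling 2 of 17 were called higher and 16 stayed above 0.

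Of 13 cold shock and glycine-rich RNA-binding proteins, 5 were higher and none lower, with a median of 0.88, and 4 were higher under the reference scaling. GRP7, an RNA chaperone under clock control, was at 3510.3 FPKM in cold and 115 FPKM in warm SW plants (4.92). CP29, a chloroplast RNA-binding protein that stabilises messages in the cold, was at 1581 FPKM in cold and 394 FPKM in warm SW plants (2.00), and its companion CP31 was level at 676 FPKM in cold and 806 FPKM in warm SW plants (-0.25). GR-RBP4 and RZ1A had log2 ratios of 1.76 and 1.43. Endoplasmic reticulum chaperones gave 1 call of 11, PDIL1-1 at 155 FPKM in cold and 74.1 FPKM in warm SW plants (1.05). Of all genes 8.12% were higher, so this count is near the background. The median was 0.50, and -0.02 under the reference scaling.

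Fermentation genes, known from low oxygen, were higher in 4 of 9 cases. ADH1, alcohol dehydrogenase, was at 347 FPKM in cold and 5.78 FPKM in warm SW plants (5.68), and the pyruvate decarboxylases PDC1 and PDC2 were at 35.1 FPKM in cold and 1.33 FPKM in warm SW plants (3.95) and at 83.0 FPKM in cold and 19.0 FPKM in warm SW plants (2.07). The low-oxygen regulators HRE1 and HRE2 were below the limit (0.93 and 0.94). Of 10 genes of darkness and sugar starvation 2 were higher and 1 lower. DIN11, an oxidoreductase known from dark leaves, was at 106 FPKM in cold and 0.918 FPKM in warm SW plants (5.80), but ASN1, an asparagine synthetase induced in the dark, was level at 2.27 FPKM in cold and 2.94 FPKM in warm SW plants. Of 14 sulfur limitation genes 3 were lower and none higher, with LSU1 at 1.498 FPKM in cold and 17.1 FPKM in warm SW plants (-2.85), SDI1 at 2.27 FPKM in cold and 11.6 FPKM in warm SW plants (-1.94) and AT1G04770 at -1.09. Small redox proteins of the CC-type glutaredoxin family were lower in 3 of 12 cases, led by AT2G47880 at 6.23 FPKM in cold and 23.8 FPKM in warm SW plants (-1.78).

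Several of the 12 largest ratios fell on genes outside these lists. AT1G69140, annotated as a transcribed pseudogene, was at 433 FPKM in cold and 0.0589 FPKM in warm SW plants (8.68). AT4G18422 and AT1G16850, whose roles are not given here, were at 382 FPKM in cold and 0.823 FPKM in warm SW plants (7.71) and at 215 FPKM in cold and 0.0776 FPKM in warm SW plants (7.65). CIPK25, a kinase of the family that calcium sensors control, was at 155 FPKM in cold and 0.528 FPKM in warm SW plants (6.67). On the low side stood GASA6, a small peptide that gibberellin induces, at 13.4 FPKM in cold and 277 FPKM in warm SW plants (-4.27), and LBD37, a repressor of nitrate-responsive genes, at 3.95 FPKM in cold and 57.7 FPKM in warm SW plants (-3.57). AT1G73600 was at 89.1 FPKM in cold and 1162 FPKM in warm SW plants (-3.69), cPT4 at 0.0256 FPKM in cold and 11.3 FPKM in warm SW plants (-3.58) and MEE3, a small MYB-like protein, at 4.00 FPKM in cold and 56.0 FPKM in warm SW plants (-3.51). AT3G55240, AT5G24155 and AT5G18030 had log2 ratios of -3.42, -3.41 and -3.37.

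The nearest comparison is that of IT plants over the same week. It shares no library with the SW comparison. In IT plants 10.4% of genes were called higher and 8.22% lower. Over the 17938 genes with a ratio in both ecotypes, 818 were higher in both, which is 57.6% of the SW genes called higher and 43.3% of those of IT. Another 728 were lower in both, 62.9% of the SW genes called lower and 50.1% of those of IT. In all, 24 genes were called in opposite directions. The difference of the log2 ratios, SW minus IT, was at least 1 for 939 of 19079 genes (4.92%) and -1 or less for 466 (2.44%), or 7.36% in either direction. The balance turned over under the reference scaling, with 543 genes at 1 or more and 1742 at -1 or less, and the median difference of all genes was -0.33, against 0.01 without it. No test of the difference between ecotypes could be made.

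The cold-protection genes lay on the side of larger SW ratios. The COR, KIN and RD29 list had a median log2 ratio of 4.1 in SW and 1.86 in IT plants, and 5 of its genes were called higher in IT. RD29A, at 1126 FPKM in cold and 8.97 FPKM in warm SW plants, was at 193 FPKM in cold and 25.7 FPKM in warm IT plants, a difference of 3.96. COR15A reached 5067 FPKM in cold and 107 FPKM in warm IT plants. The KIN genes together were at 5854 FPKM in cold and 421 FPKM in warm IT plants, so as a fold the ecotypes lay further apart in the warm than in the cold, while the difference in FPKM was larger in the cold. The dehydrins had medians of 2.89 in SW and 0.85 in IT, and all 6 measured differences were at least 1. LTI30, for example, was at 278 FPKM in cold and 6.75 FPKM in warm IT plants.

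CIPK25, at 155 FPKM in cold SW plants, was at 9.41 FPKM in cold and 0.681 FPKM in warm IT plants (difference 4.04). LEA7 was at 1.05 FPKM in cold IT plants (difference 4.03). DIN2, a beta-glucosidase of dark leaves, had the largest difference, 5.54, at 20.1 FPKM in cold and 2.51 FPKM in warm SW plants, against 1.68 FPKM in cold and 19.8 FPKM in warm IT plants. It was called in opposite directions. So was NIT2, a nitrilase, at 152 FPKM in cold and 18.3 FPKM in warm SW plants, against 31.7 FPKM in cold and 64.4 FPKM in warm IT plants (difference 3.99). UGT74E2, a glucosyltransferase of an auxin precursor, was a further one (difference 4.57), at 20.9 FPKM in cold and 1.06 FPKM in warm SW plants, against 1.59 FPKM in cold and 4.78 FPKM in warm IT plants.

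Other lists set the ecotypes apart in both directions. Flavonoid genes had a median of 1.08 over 12 genes in SW and 0.05 over 14 in IT. Gene by gene their median difference was 0.87, or 0.51 under the reference scaling. Early cold transcription factors had medians of 1.15 in SW and 0.02 in IT. Their median difference gene by gene was smaller, 0.64, or 0.31 under the reference scaling. Of these 15 differences, 5 were at least 1 and 1 was -1 or less. Tonoplast aquaporins had medians of -3.15 in SW and -1.31 in IT, and plasma membrane aquaporins -1.08 in SW and -0.29 in IT. Nucleolar assembly genes had the smaller ratio in SW, 0.92 against 1.91 in IT, where 17 of them were called higher. The anthocyanin genes, of which SW had none called, had 7 called lower in IT and a median of -1.11. Clock genes had medians of 1.52 in SW and 1.19 in IT. The reference scaling turned that order to 1.08 in SW and 1.15 in IT. Light-harvesting genes had close medians, -1.13 over 17 genes in SW and -0.93 over 16 in IT. Gene by gene their median difference was -0.03, and none of the 16 differences reached 1 in size. Quantile normalization turned the order of their medians to -0.88 in SW and -1.02 in IT. Among single genes with the smaller SW ratio, WRKY30, a stress factor, was at 5.10 FPKM in cold and 6.38 FPKM in warm SW plants, against 22.3 FPKM in cold and 1.35 FPKM in warm IT plants (difference -3.59). AT3G54830, an amino acid carrier, was at 10.8 FPKM in cold and 23.7 FPKM in warm SW plants, against 48.0 FPKM in cold and 8.34 FPKM in warm IT plants (difference -3.45).

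**Figure D5:**
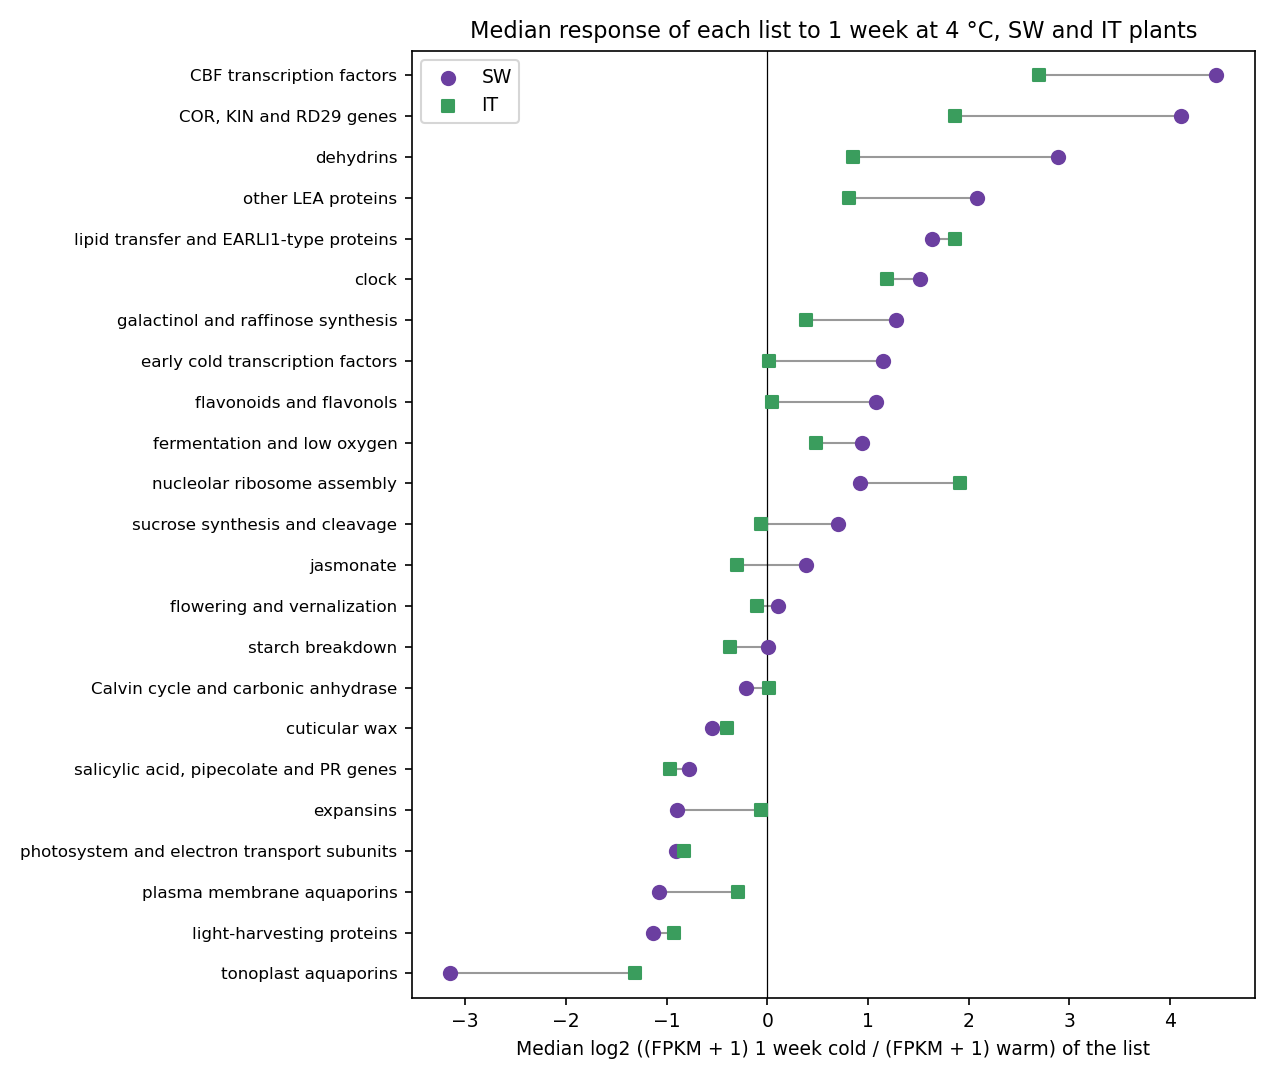
Median log2 ratio of FPKM + 1 after 1 week at 4 °C over warm for each list, with SW as circles and IT as squares. The largest gaps with SW farther from 0 are those of the COR, KIN and RD29 genes, the dehydrins and the tonoplast aquaporins, and the nucleolar assembly genes have IT farther from 0.

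SW plants after 2 weeks at 4 °C share the warm group with the 1-week comparison, so levels are given side by side. Of the genes called higher at 1 week, 1506 were not listed at 0 at 2 weeks. Of these, 1219 were within 2-fold of their 1-week level at 2 weeks. Another 279 were at least 2-fold below it and 8 at least 2-fold above it. They were chosen by their 1-week value, which by itself tilts the count toward falls from that value. The same count over all genes was not made. COR15A was at 13809.5 FPKM after 1 week and 13319 FPKM after 2 weeks, and RD29A at 1126 FPKM after 1 week and 1532 FPKM after 2 weeks. Both thus stayed within 2-fold of their 1-week level. CBF2 was at 39.8 FPKM and CBF3 at 51.2 FPKM after 2 weeks. Some LEA and stress genes were far lower at the later time. LEA7 was at 40.1 FPKM after 1 week and 0.263 FPKM after 2 weeks. RAB18 was at 71.5 FPKM after 1 week and 11.03 FPKM after 2 weeks, and DIN11 at 106 FPKM after 1 week and 1.96 FPKM after 2 weeks. Of 1194 genes called lower at 1 week and not listed at 0 at 2 weeks, 1130 were within 2-fold of that level at 2 weeks. These genes too were chosen by their 1-week value.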

How the data were processed

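Whole-shoot mRNA was sequenced in 18 libraries, 3 in each of 6 groups. Per the submitters' processing notes, TopHat 1.4.1, Cufflinks 2.1.1 and Cuffdiff were used with the genome build TAIR10. The sources used here give neither their settings nor how 3 libraries became 1 column. The authors deposited 1 FPKM value per gene and group, so the depth of each library is unknown here. Such values give no replicate error, and neither a count test nor a p-value was used.

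Genes with at least 1 FPKM in SW cold or SW warm plants were kept, a pseudocount of 1 FPKM was added and log2 ratios were taken. A value of exactly 0 in 1 column was treated as missing. A log2 ratio of 1 in size is the 2-fold limit. Reference genes were a list of 12, of which 11 passed the filter. Gene names and the gene starts behind the promoter windows come from RefSeq's TAIR10.1 annotation, which matched 32813 of 33557 loci. Motif shares count protein-coding nuclear genes with at least 1 match on either strand in the 300 bases before the start.

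Genes were named by rule: the 12 largest and 12 smallest ratios with at least 5 FPKM; any member of lists with up to 12 measured genes; in larger lists the 4 largest ratios on each side past 2-fold and the 3 most abundant members; the 8 largest differences from IT on each side; and genes at 0 in 1 column with at least 20 FPKM in the other. Others are marked as chosen after their values were seen. The members and lists were chosen with earlier results of these data known. The gene families of the closing section, the printed promoters and the limits for calling a value moved were chosen after the values were seen.

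The ratio and scaling steps were tested on simulated data, and the motif search on a short made-up sequence. The list step was not tested in this way. Python 3.11.15 with pandas 2.3.3, numpy 2.4.6, scipy 1.17.1 and matplotlib 3.10.9 was used. Alternatives were other pseudocounts, filters, scalings and treatment of 0, protein-coding genes alone, and other motif settings.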

Additional observations from a re-analysis of the deposited data

How the results depend on the processing

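Scaling to the reference genes gave 772 higher and 2699 lower genes, a share higher of 22.2%, a median log2 ratio over all genes of -0.37 and 2285 genes at least 2-fold apart between the SW and IT responses, against 1405. The share higher was 53.5% with a pseudocount of 0.1 FPKM, 53.8% with 0.25 FPKM, 47.1% with upper-quartile scaling and 48.6% with quantile normalization. The pseudocount of 0.1 FPKM gave 2208 genes apart between the ecotypes. Other counts of higher and lower genes stayed within 1.5-fold of the reported ones, from 1278 to 1960 higher and from 1008 to 1701 lower. The share of genes with a CRT/DRE core was 22.8% of the higher and 15.2% of the lower genes with a 4-fold limit. It was 13.6% of the higher, 5.62% of the lower and 9.14% of the genes within 2-fold with the longer motif (ACCGAC or GCCGAC), and 43.5%, 33.1% and 39.2% in a window of 1000 bases, an alternative chosen after seeing the data. Scaling to the reference genes moved all 56 list medians by more than 0.1 and turned the sign of those of 11 lists and 2 families, CIPK and WRKY, and it turned the balance of the SW minus IT differences to 543 genes at 1 or more and 1742 at -1 or less, against 939 and 466. Over 9 alternatives, 468 list medians kept their side of the 2-fold limit and their value within 1.5-fold, and 35 did not. For log2 ratios of named genes these counts were 5186 and 300. Filters, treatment of 0 and protein-coding genes alone change only which genes are kept, so no named gene's ratio could move under them. Of the 300 moves, 106 came from the reference scaling, 34 from quantile normalization and 30 from upper-quartile scaling. The pseudocounts of 0.1 and 0.25 FPKM gave 71 and 59. The cause of these moves was not tested. No called value changed sign. For scalings by 1 constant per column, whose shift was smaller than the 2-fold limit, none could. No paired analysis was possible because the table holds 1 combined column per group and no column per library. For the same reason no library could be left out, and depth, which limits low genes most, is unknown.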

Other observations

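Gene families outside the lists, defined by their RefSeq annotation and chosen after the values were seen, showed further patterns in SW plants after 1 week at 4 °C. SAUR proteins, small proteins that auxin induces in growing cells, were at least 2-fold lower in 31 of 48 measured cases and higher in 2, with a median log2 ratio of -1.13, where 6.45% of all genes were lower. AT1G72430 was at 7.80 FPKM in cold and 62.5 FPKM in warm SW plants (-2.85), and SAUR9 was an exception at 20.01 FPKM in cold and 3.48 FPKM in warm SW plants (2.23). Tau glutathione S-transferases, which detoxify reactive compounds, were higher in 12 of 23 cases and lower in 1, with a median of 1.01, where 8.12% of all genes were higher. GSTU24 was at 219 FPKM in cold and 3.88 FPKM in warm SW plants (5.50), and GSTU8 at 54.5 FPKM in cold and 1.97 FPKM in warm SW plants (4.23). Members of this family lie in tandem and may share reads. Small hydrophobic membrane proteins of the RCI2 type were higher in 3 of 5 cases. AT4G30650 was at 1308 FPKM in cold and 16.2 FPKM in warm SW plants (6.25), and RCI2A at 604 FPKM in cold and 44.0 FPKM in warm SW plants (3.75).

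Of 299 ribosomal protein genes, 72 were higher and 1 lower in SW, with a median of 0.75, against 205 higher and a median of 1.42 in IT plants. Under the reference scaling 7 of 298 were higher in SW and the median was 0.31. Among receptors of immunity, 10 of 26 cysteine-rich receptor-like kinases and 6 of 47 TIR-NBS-LRR resistance proteins were lower, where 6.45% of all genes were, and none was higher in either family. The other members stayed within 2-fold. Under the reference scaling 21 of 48 TIR-NBS-LRR genes were lower. CRK24 was at 1.25 FPKM in cold and 10.3 FPKM in warm SW plants (-2.33). Among the CIPK kinases, CIPK4 was at 41.7 FPKM in cold and 1.25 FPKM in warm SW plants (4.24) and CIPK20 at 4.50 FPKM in cold and 40.1 FPKM in warm SW plants (-2.90). WRKY factors, regulators of defence and senescence, had 10 of 48 higher and 6 lower, or 7 of 49 higher and 9 lower with the reference scaling, with WRKY28 at 13.6 FPKM in cold and 1.09 FPKM in warm SW plants (2.80) and WRKY75 at 17.3 FPKM in cold and 1.75 FPKM in warm SW plants (2.73). Of 13 chaperonins of the CCT family, 2 were higher, and none was with the reference scaling.

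Several stress genes chosen after their values were seen were high at 1 week of cold and not at 2 weeks. GSTU25 was at 0.268 FPKM in warm SW plants, 11.4 FPKM after 1 week and 0.448 FPKM after 2 weeks. GSTU6 was at 0.339 FPKM in warm SW plants, 9.09 FPKM after 1 week and 0.362 FPKM after 2 weeks. UGT74E2 was at 1.06 FPKM in warm SW plants, 20.9 FPKM after 1 week and 0.259 FPKM after 2 weeks. MYB15 was at 0.511 FPKM in warm SW plants, 4.97 FPKM after 1 week and 0.364 FPKM after 2 weeks. WRKY75 was at 1.46 FPKM after 2 weeks. With 1 combined value per group, whether 1 of the 3 libraries carries such a value was not tested.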
